A study of Arabidopsis thaliana with 18 samples.

Results

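The 10 genes described here are heat shock transcription factors of Arabidopsis thaliana, taken by locus from a count table of 32833 genes: HSFA1A (AT4G17750), HSFA1B (AT5G16820), HSFA1D (AT1G32330), HSFA2 (AT2G26150), HSFA3 (AT5G03720), HSFA7A (AT3G51910), HSFA9 (AT5G54070), HSFB1 (AT4G36990), HSFB2A (AT5G62020) and HSFB2B (AT4G11660). They belong to a family of 21 listed loci, and 9 of the 10 had enough reads to be tested, HSFA3 being the exception. RNA sequencing was done on freshly harvested seeds of the Col-0 ecotype, with 3 libraries in each of 6 groups. These were seeds imbibed on wet filter paper for 6 h of the line labelled mkk3-1 (an MKK3 knockout), of mpk7_ko3 (an MPK7 knockout) and of wild-type Col-0, and dry seeds of mkk3-1, mpk7_ko3 and Col-0. The mutated genes encode a MAP kinase kinase (MKK3) and a kinase that acts below it (MPK7). Each knockout is 1 allele, and how each gene was disrupted is not given in the sources used here.

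Heat shock factors bind inverted repeats of short GAA units, called heat shock elements, in the promoters of chaperone genes. The HSFA1 factors start the heat response and are held inactive by HSP70 and HSP90 chaperones, while HSFA2, HSFA3 and HSFA7A are activators whose genes are themselves switched on by stress. HSFA9 is a factor of maturing seeds, acts below the seed regulator ABI3 and drives the seed's own set of small heat shock proteins. Class B factors such as HSFB1, HSFB2A and HSFB2B lack the activation motif of class A and mostly repress, HSFA2 and HSFA7A being among the genes that HSFB1 and HSFB2B act on.

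Library totals ran from 18249333 to 21036275 counts. Levels below are CPM, counts scaled to a common library size with TMM factors, and "rose", "fell" and "called" mean an adjusted p below 0.05 from edgeR's quasi-likelihood test over 17758 genes (Benjamini-Hochberg). Shares of all tested genes called are for this threshold, and none was computed for an unadjusted p. The labels do not say whether replicates came from separate seed batches, so p-values measure the spread between these libraries, which may be technical. Replicate 3 of mpk7_ko3 lay farthest from the rest of its group in both states, with a root mean square log2 distance of 0.415 in imbibed and 0.548 in dry seeds, against 0.310 to 0.365 and 0.384 to 0.485 in the other libraries of the same states. MKK3 averaged 7.36 CPM in dry mkk3-1 against 17.38 CPM in dry Col-0 (log2 difference -1.24, adjusted p = 4.43e-07), but 11.8 CPM in imbibed seeds labelled mkk3-1 against 13.3 CPM in imbibed Col-0 (-0.18, adjusted p = 0.307). A lower MKK3 level therefore does not mark the imbibed mkk3-1 libraries, and every direction given for them below rests on their labels. A gene chosen after its values were seen, AT1G64795, had 89.8 to 563 CPM in all 6 libraries labelled mkk3-1 and 0.616 to 6.96 CPM in the other 12. MPK7 was lower in mpk7_ko3, at 12.9 against 35.2 CPM in imbibed Col-0 and 14.7 against 41.3 CPM in dry Col-0. The seed label was checked on its reserve markers, of which 7 of 7 were measured, with a summed level of 32330 to 50340 CPM in imbibed and 54250 to 87300 CPM in dry libraries.

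The stretches just before the gene start are shown for the 3 members that held letters of a heat shock or RY element, since chaperone and seed maturation genes are controlled through such elements. Each is 250 bases long, ends at the base before the annotated start, is given 5' to 3' on the gene's own strand from the RefSeq TAIR10.1 assembly, and carries the matches in capitals. Capitals mark 2-unit heat shock elements (GAANNTTC or TTCNNGAA), the core of the abscisic acid response element (ACGTG) and the RY element of seed genes (CATGCA), searched on both strands.
HSFA9, chr5:21943733-21943982, plus strand: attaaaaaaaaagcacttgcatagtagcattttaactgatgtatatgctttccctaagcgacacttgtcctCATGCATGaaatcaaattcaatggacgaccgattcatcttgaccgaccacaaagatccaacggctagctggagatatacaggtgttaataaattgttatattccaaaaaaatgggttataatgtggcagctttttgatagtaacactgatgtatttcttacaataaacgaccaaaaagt
HSFA2, chr2:11135374-11135623, plus strand: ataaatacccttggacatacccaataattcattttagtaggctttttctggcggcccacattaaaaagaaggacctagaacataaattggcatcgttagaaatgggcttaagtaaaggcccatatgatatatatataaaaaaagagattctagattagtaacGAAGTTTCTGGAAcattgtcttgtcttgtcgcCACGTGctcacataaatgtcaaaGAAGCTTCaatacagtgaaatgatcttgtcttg
HSFA7A, chr3:19264891-19265140, plus strand: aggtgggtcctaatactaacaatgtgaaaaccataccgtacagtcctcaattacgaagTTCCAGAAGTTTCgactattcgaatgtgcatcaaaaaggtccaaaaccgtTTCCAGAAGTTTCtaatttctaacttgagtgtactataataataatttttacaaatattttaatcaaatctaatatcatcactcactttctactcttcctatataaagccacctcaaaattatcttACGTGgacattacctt

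HSFA9 held 2 overlapping RY matches, which together run from 179 to 172 bases before the start, and no heat shock element or ACGTG. HSFA2 held 3 heat shock element matches, of which those at 88 to 81 and 83 to 76 bases before the start overlap and the other lies at 33 to 26, and 2 overlapping ACGTG matches at 56 to 51, on opposite strands. Its window overlaps the neighbouring gene AT2G26140 on the other strand. HSFA7A held 4 heat shock element matches in 2 overlapping pairs of the same 13 letters, and 1 ACGTG at 16 to 12 bases before the start. Among all 10 members the heat shock element was found in 2, ACGTG in 4 (HSFA1B with 3 matches, HSFA1D, HSFA2 and HSFA7A) and the RY element in 1. Over all 32546 windows of this length the shares were 16.5%, 21.8% and 8.78%. HSFA1A, HSFA3, HSFB1, HSFB2A and HSFB2B had none of these letters in the window. A match is a description of the letters and not a binding site.

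Read per kilobase of exon, HSFA9 was the most abundant member in all 6 groups. The summed level of the 10 members was 85.8 to 102 CPM per kilobase in imbibed libraries labelled mkk3-1, 107.7 to 115.5 in imbibed mpk7_ko3 and 74.9 to 83.8 in imbibed Col-0. In dry libraries it was 374 to 417 CPM per kilobase in mkk3-1, 441 to 460 in mpk7_ko3 and 328 to 380 in Col-0, so imbibed and dry libraries were far apart in each genotype. HSFA9 made up 34.0%, 44.6% and 33.3% of the sum of group means in imbibed mkk3-1, mpk7_ko3 and Col-0, and 68.3%, 73.1% and 68.1% in the same genotypes when dry. Without HSFA9 the sum was 51.4 to 68.7 CPM per kilobase over the 9 imbibed and 113 to 126 over the 9 dry libraries.

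**Figure D1:**
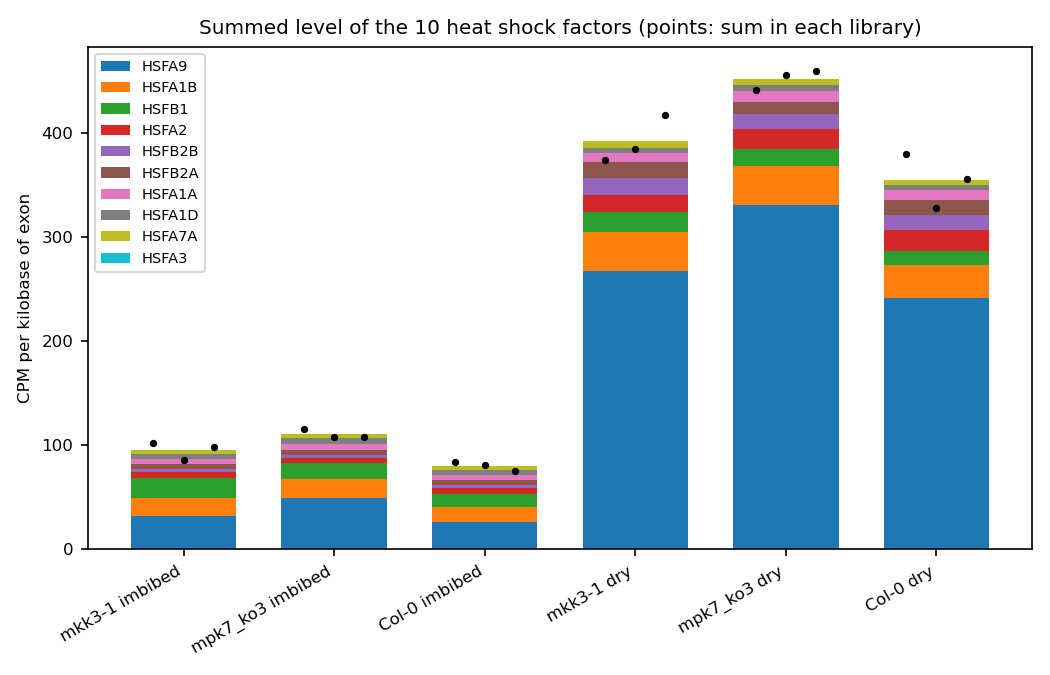
Stacked bars give the mean level of each of the 10 heat shock factors in CPM per kilobase of exon (y axis) in the 6 groups (x axis), and points give the sum in each of 3 libraries. HSFA9 takes 33.3% to 44.6% of the bar in imbibed and 68.1% to 73.1% in dry seeds.

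In dry Col-0 the order of levels per kilobase was HSFA9 (241.5 CPM per kilobase), HSFA1B (32.1), HSFA2 (20.2), HSFB2B (14.3), HSFB2A (13.7), HSFB1 (13.4), HSFA1A (9.65), HSFA1D (5.21), HSFA7A (4.80) and HSFA3 (0.0661). The library values of HSFB2B, HSFB2A and HSFB1 overlapped, as did those of HSFA1D and HSFA7A. In imbibed Col-0 it was HSFA9 (26.6 CPM per kilobase), HSFA1B (14.3), HSFB1 (12.3), HSFA2 (5.95), HSFA1A (5.07), HSFA1D (4.65), HSFB2A (4.51), HSFA7A (3.80), HSFB2B (2.69) and HSFA3 (0.0425). There the library values of HSFA1D overlapped those of HSFB2A, which overlapped those of HSFA7A. HSFB2B was thus in the fourth place when dry and in the ninth when imbibed, while HSFB1 was in the sixth and the third. In imbibed seeds labelled mkk3-1 HSFB1 came second, at 19.8 against 16.6 CPM per kilobase for HSFA1B, with overlapping library values.

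Most of the members tested were lower after imbibition. In mkk3-1 as labelled 7 of the 9 members tested fell, where 73.3% of all tested genes were called, 37.5% rising and 35.8% falling. In mpk7_ko3 7 fell, where 72.5% of all genes were called, 37.6% rising and 34.9% falling. In Col-0 6 fell, where 74.9% of all genes were called, 38.8% rising and 36.1% falling. No member rose in any genotype by edgeR, at an unadjusted p below 0.05 or by DESeq2, which called 7, 7 and 6 lower. The median log2 change of the 9 members was -1.14, -1.08 and -1.17 in mkk3-1, mpk7_ko3 and Col-0, against 0.05, 0.06 and 0.06 over all tested genes. In bulk seeds fewer cells of a type and less RNA per cell cannot be told apart. Scaling to library totals in place of TMM moved the median of all genes to 0.60, 0.61 and 0.66 and that of the 9 members to -0.59, -0.52 and -0.57. The falls were thus smaller with that scaling. Then 6 members fell in each genotype while HSFA1D and HSFB1 rose by less than the median of all genes.

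**Figure D2:**
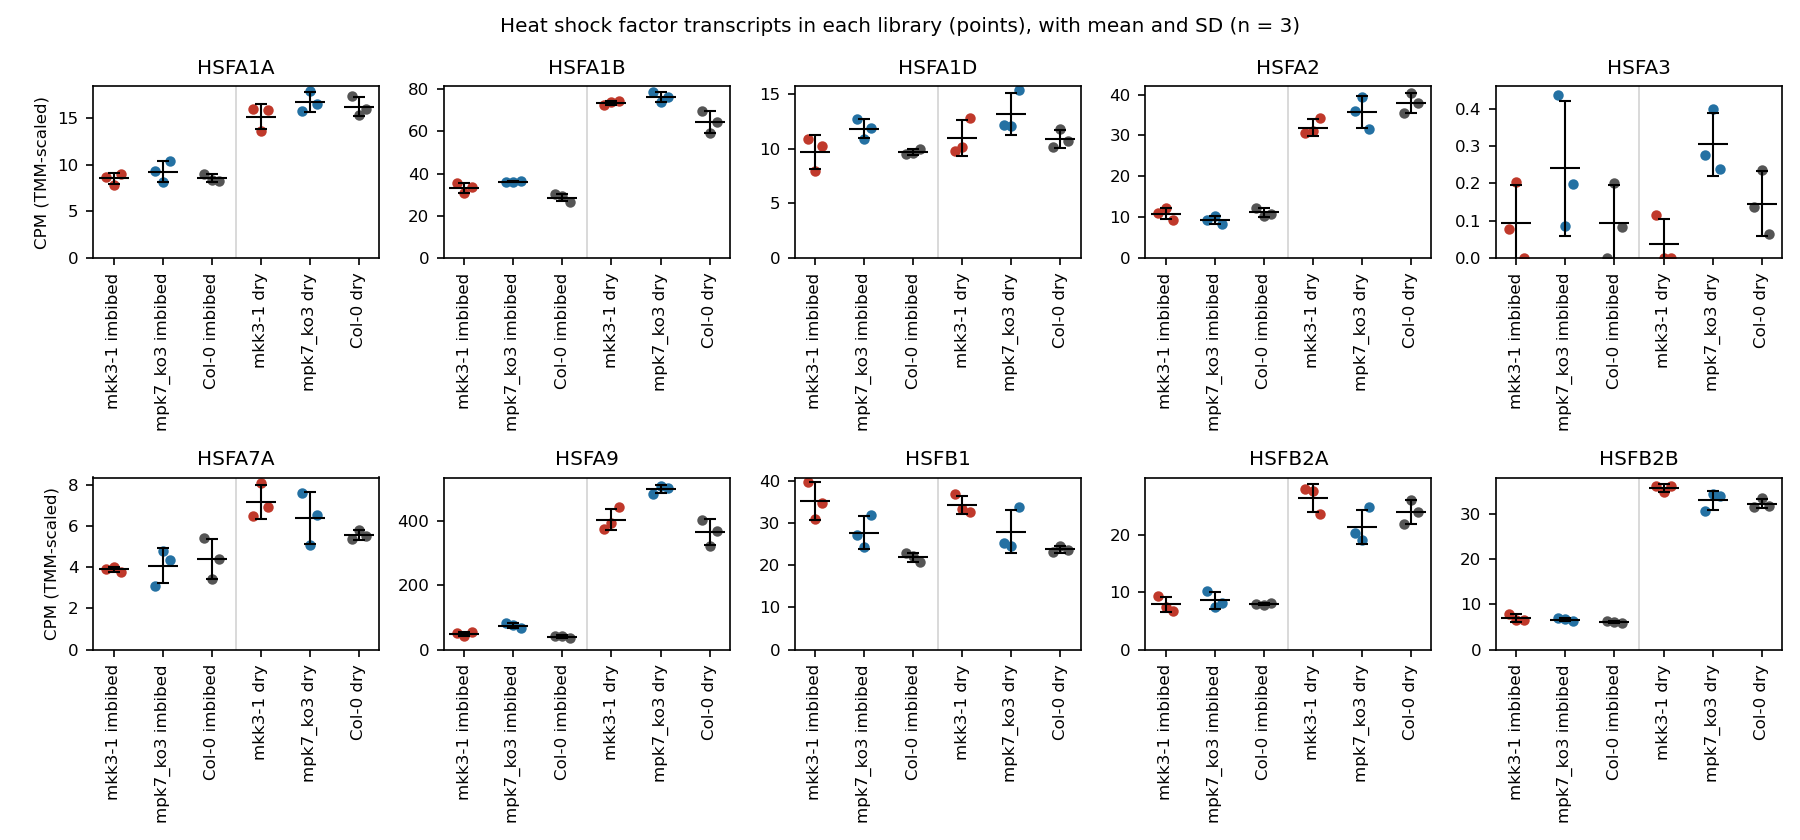
CPM (y axis, from 0, a scale of its own for each gene) of the 10 heat shock factors in each of the 18 libraries (points) by group (x axis), with the mean and SD of 3 libraries as black bars. HSFA9, HSFB2B, HSFB2A, HSFA2, HSFA1B and HSFA1A lie lower in all 9 imbibed than in all 9 dry libraries, while HSFA1D and HSFB1 overlap.

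The largest fall was that of the seed factor HSFA9 (chr5:21943983-21945651, plus strand). It had 50.0, 41.2 and 55.4 CPM in imbibed libraries labelled mkk3-1, 81.4, 75.1 and 66.7 CPM in imbibed mpk7_ko3 and 41.7, 43.5 and 35.6 CPM in imbibed Col-0. When dry, mkk3-1 had 377, 395 and 443 CPM, mpk7_ko3 had 486, 509 and 505 CPM and Col-0 had 404, 323 and 368 CPM. Every dry library was far above every imbibed one, and in mkk3-1, mpk7_ko3 and Col-0 76.6%, 72% and 78.7% of all tested genes also had imbibed and dry libraries that did not overlap. The log2 change was -3.05 ± 0.115 in mkk3-1, -2.75 ± 0.113 in mpk7_ko3 and -3.18 ± 0.117 in Col-0 (± SE, n = 3 per group, adjusted p = 5.44e-15, 1.72e-14 and 2.75e-15), which in Col-0 is a 9.07-fold lower level. AT5G54075 overlaps HSFA9 by 303 bases on the other strand and had 0 to 3 counts per library.

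Among the regulators of seed maturation ABI3, which acts above HSFA9, moved the other way. ABI3 averaged 349.7 CPM in imbibed against 219 CPM in dry Col-0 and rose by 0.67 ± 0.0740 (adjusted p = 5.44e-08). FUS3, another B3-domain regulator of maturation, fell by 1.41 and the bZIP factor ABI5 fell by 1.96 in Col-0. LEC1 and LEC2 did not pass the low-count filter.

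The class B repressors HSFB2B and HSFB2A fell and HSFB1 did not. HSFB2B (chr4:7042354-7044708, plus strand) had 7.99, 6.48 and 6.45 CPM in imbibed libraries labelled mkk3-1, 7.004, 6.69 and 6.24 CPM in imbibed mpk7_ko3 and 6.25, 6.20 and 5.87 CPM in imbibed Col-0. The dry mkk3-1 libraries had 36.4, 34.9 and 36.2 CPM, those of mpk7_ko3 30.8, 34.5 and 34.0 CPM and those of Col-0 31.7, 33.6 and 31.8 CPM. The states did not overlap, as in 76.6%, 72% and 78.7% of all tested genes in mkk3-1, mpk7_ko3 and Col-0. The log2 change of HSFB2B was -2.36 ± 0.0934 in mkk3-1, -2.31 ± 0.0943 in mpk7_ko3 and -2.40 ± 0.0951 in Col-0 (adjusted p = 9.39e-15, 1.44e-14 and 7.79e-15). HSFB2B overlaps AT4G11670 and AT4G05910 on the other strand by 660 bases in all, and these had 0 to 1054 counts, so with an unknown strand setting reads of the overlap cannot be told apart. HSFB2A (chr5:24915807-24917643, plus strand) averaged 7.88 ± 1.36 CPM in imbibed mkk3-1, 8.61 ± 1.49 in imbibed mpk7_ko3 and 7.90 ± 0.172 in imbibed Col-0, against 26.45 ± 2.41, 21.4 ± 2.98 and 24.0 ± 2.08 CPM in the same genotypes when dry (SD, n = 3). It fell by 1.75 ± 0.136, 1.31 ± 0.136 and 1.60 ± 0.137 on the log2 scale.

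HSFB1 (chr4:17440177-17442151, plus strand) had 39.9, 31.1 and 34.8 CPM in imbibed libraries labelled mkk3-1, 27.2, 24.3 and 32.0 CPM in imbibed mpk7_ko3 and 22.9, 22.2 and 20.7 CPM in imbibed Col-0. Dry mkk3-1 had 36.9, 33.4 and 32.8 CPM, dry mpk7_ko3 25.4, 24.6 and 33.9 CPM and dry Col-0 23.1, 24.6 and 23.7 CPM. The states overlapped in mkk3-1 and mpk7_ko3 and lay next to each other in Col-0: the log2 change on imbibition was 0.04 in mkk3-1, -0.01 in mpk7_ko3 and -0.12 in Col-0, with 95% intervals of -0.20 to 0.28, -0.26 to 0.24 and -0.37 to 0.13. With library totals these values were 0.59, 0.54 and 0.48 and passed the test, below the shift of the median gene in each genotype.

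The heat-inducible activators HSFA2 and HSFA7A fell too, and HSFA3 stayed near 0. HSFA2 (chr2:11135624-11137792, plus strand) had 11, 12.3 and 9.40 CPM in imbibed libraries labelled mkk3-1, 9.31, 10.2 and 8.26 CPM in imbibed mpk7_ko3 and 12.3, 10.4 and 10.8 CPM in imbibed Col-0. Dry mkk3-1 had 30.5, 31.1 and 34.2 CPM, dry mpk7_ko3 36.1, 39.5 and 31.6 CPM and dry Col-0 35.5, 40.5 and 37.9 CPM. Imbibed and dry libraries did not overlap, as in 76.6%, 72% and 78.7% of all tested genes in mkk3-1, mpk7_ko3 and Col-0. The log2 change of HSFA2 was -1.55 ± 0.112 in mkk3-1, -1.95 ± 0.114 in mpk7_ko3 and -1.77 ± 0.112 in Col-0 (adjusted p = 8.38e-11, 3.03e-12 and 8.73e-12). HSFA7A (chr3:19265141-19266806, plus strand) averaged 3.90 ± 0.110 CPM in imbibed mkk3-1, 4.08 ± 0.868 in imbibed mpk7_ko3 and 4.41 ± 0.976 in imbibed Col-0, against 7.17 ± 0.827, 6.39 ± 1.27 and 5.56 ± 0.235 CPM when dry. It fell in the seeds labelled mkk3-1 (-0.88 ± 0.189, adjusted p = 0.000312) and in mpk7_ko3 (-0.65 ± 0.191, adjusted p = 0.00475), while Col-0 had -0.34 ± 0.192 (adjusted p = 0.119) with overlapping libraries. With library totals both calls ended, at -0.32 (adjusted p = 0.120) and -0.09 (adjusted p = 0.661), and the Col-0 value turned to 0.26. Without replicate 1 of imbibed Col-0 the Col-0 value was -0.50 (adjusted p = 0.0373).

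HSFA3 (chr5:971142-974326, minus strand), a target of the drought and heat factor DREB2A, had 2, 5 and 0 counts in imbibed libraries labelled mkk3-1, 11, 2 and 5 in imbibed mpk7_ko3 and 0, 5 and 2 in imbibed Col-0. Dry mkk3-1 had 2, 0 and 0 counts, dry mpk7_ko3 4, 6 and 4 and dry Col-0 2, 4 and 1. A count of 0 allows 3 counts, which correspond to 0.117 to 0.207 CPM in these libraries. HSFA3 did not pass the low-count filter and was not tested, and the highest library held 11 counts.

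Of the HSFA1 factors, HSFA1B and HSFA1A fell while HSFA1D was not called. HSFA1B (chr5:5530195-5532889, plus strand) had 35.6, 30.9 and 33.5 CPM in imbibed libraries labelled mkk3-1, 36.2, 36.1 and 36.3 CPM in imbibed mpk7_ko3 and 30.1, 29.2 and 26.7 CPM in imbibed Col-0. Dry mkk3-1 had 72.6, 74.0 and 74.3 CPM, dry mpk7_ko3 78.9, 74.0 and 76.1 CPM and dry Col-0 69.7, 59.4 and 64.2 CPM. The states did not overlap, as in 76.6%, 72% and 78.7% of all tested genes in mkk3-1, mpk7_ko3 and Col-0. The log2 change of HSFA1B was -1.14 ± 0.0715 in mkk3-1, -1.08 ± 0.0713 in mpk7_ko3 and -1.17 ± 0.0724 in Col-0 (adjusted p = 8.81e-12, 2.21e-11 and 6.29e-12). HSFA1B overlaps AT5G16830 by 44 bases on the other strand, and that gene had 231 to 969 counts. HSFA1A (chr4:9869818-9871646, minus strand) ranged from 7.87 to 10.4 CPM in imbibed and from 13.6 to 17.9 CPM in dry libraries, and it fell by 0.83, 0.85 and 0.93 in mkk3-1, mpk7_ko3 and Col-0. Under the alternatives its log2 change came as near to 0 as -0.28, -0.30 and -0.33, and each call held. HSFA1D (chr1:11656964-11660471, minus strand) ranged from 7.95 to 12.7 CPM in imbibed and from 9.83 to 15.4 CPM in dry libraries. Its log2 changes of -0.17, -0.16 and -0.17 had 95% intervals within -0.46 to 0.12, and with library totals they were 0.38, 0.39 and 0.43.

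**Figure D3:**
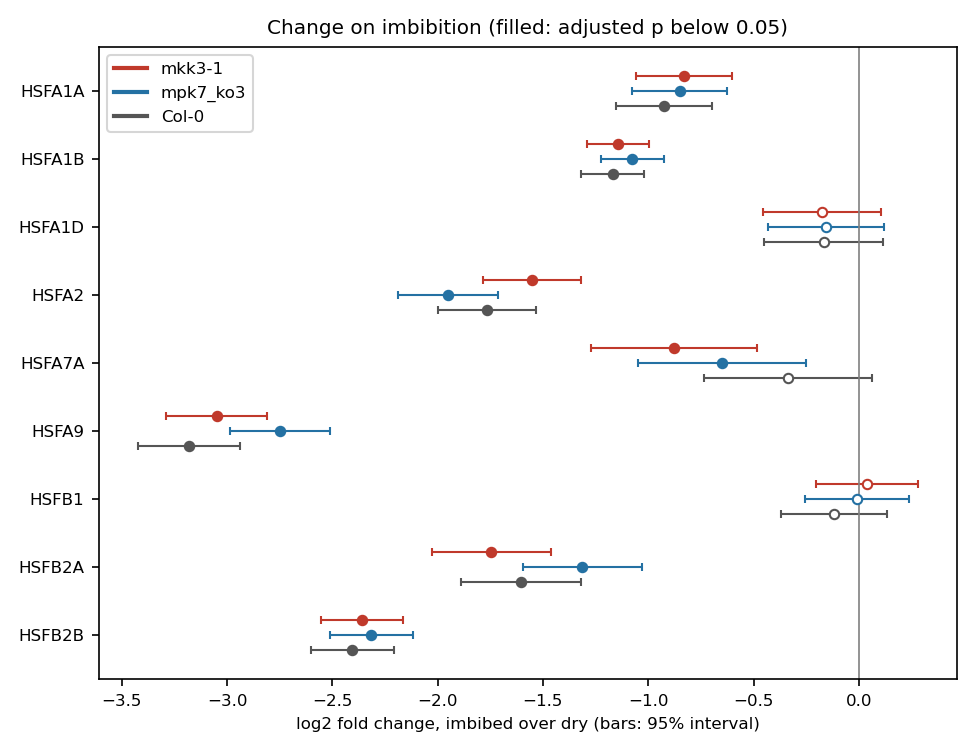
Log2 fold change of imbibed over dry seeds (x axis) for the 9 heat shock factors tested (y axis) in mkk3-1, mpk7_ko3 and Col-0, with 95% intervals, TMM scaling and filled points for an adjusted p below 0.05. HSFA9 lies between -3.18 and -2.75 and HSFB2B between -2.40 and -2.31, while HSFA1D and HSFB1 lie near 0, where library totals turn the direction of each negative value.

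Between a mutant and Col-0, 3 of the 9 members were called, each time as a rise: HSFB1 in mkk3-1, and HSFA9 and HSFA1B in mpk7_ko3. A call in 1 mutant only does not show that the mutants differ from each other. In imbibed seeds labelled mkk3-1, 1 member rose and 0 fell, while 7.95% of all tested genes were called, 3.63% rising and 4.32% falling. In imbibed mpk7_ko3, 2 rose and 0 fell against 9.84% of all genes called, 5.12% rising and 4.72% falling. In dry mkk3-1, 1 rose and 0 fell against 2.08% called, 0.687% rising and 1.4% falling. In dry mpk7_ko3, 1 rose and 0 fell against 2.76% called, 0.653% rising and 2.11% falling. At an unadjusted p below 0.05, 0 members were lower in imbibed mkk3-1, 1 in imbibed mpk7_ko3, 1 in dry mkk3-1 and 0 in dry mpk7_ko3, and DESeq2 called 0 lower in each. Both mutants were compared with the same Col-0 libraries, so their values stand side by side here and are not independent.

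**Figure D4:**
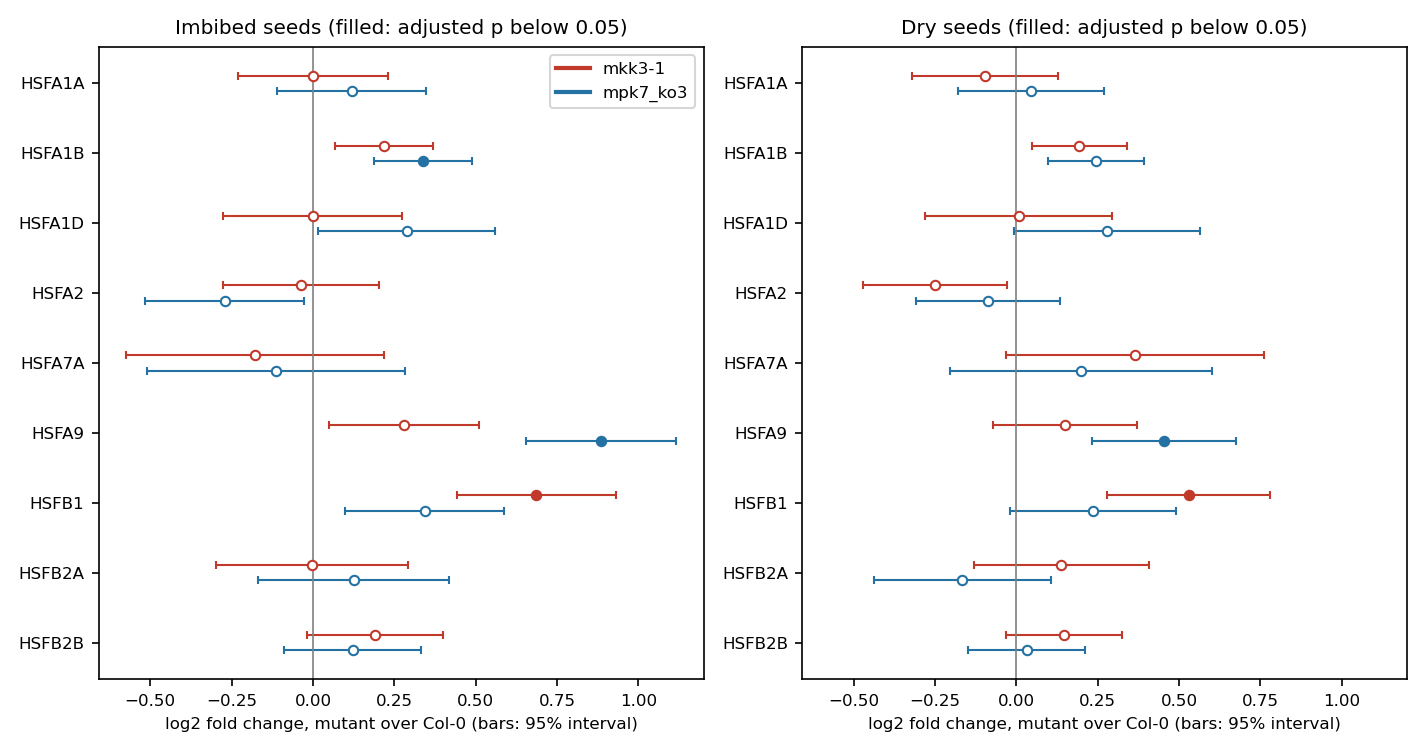
Log2 fold change of each mutant over Col-0 (x axis) for the 9 heat shock factors tested (y axis) in imbibed (left) and dry seeds (right), with 95% intervals and filled points for an adjusted p below 0.05. In imbibed seeds HSFA9 is at 0.89 in mpk7_ko3 and 0.28 in mkk3-1, and HSFB1 is at 0.34 in mpk7_ko3 and 0.69 in mkk3-1.

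HSFB1 was higher in mkk3-1 than in Col-0 in both states. In imbibed seeds it averaged 35.3 ± 4.42 CPM in libraries labelled mkk3-1, 27.8 ± 3.87 CPM in mpk7_ko3 and 21.9 ± 1.08 CPM in Col-0 (SD, n = 3), and in dry seeds 34.4 ± 2.23, 28.0 ± 5.12 and 23.8 ± 0.760 CPM. Every library labelled mkk3-1 lay above every Col-0 library of the same state, and 32.7% of all tested genes in imbibed and 18.4% in dry seeds had libraries of mkk3-1 and Col-0 that did not overlap. The log2 difference of mkk3-1 from Col-0 was 0.69 ± 0.117 in imbibed seeds (1.61-fold, adjusted p = 0.000836) and 0.53 ± 0.121 in dry seeds (1.44-fold, adjusted p = 0.0235). The imbibed call held under every alternative run. The dry call ended without any 1 of replicates 1, 2 and 3 of dry Col-0 (adjusted p = 0.0693, 0.0564 and 0.0861) or replicates 1 and 3 of dry mkk3-1 (adjusted p = 0.126 and 0.0521). In mpk7_ko3 HSFB1 differed from Col-0 by 0.34 ± 0.117 in imbibed seeds (adjusted p = 0.0693) and 0.23 ± 0.122 in dry seeds (adjusted p = 0.343), replicate 3 having the highest value of its group in both states. The imbibed value passed under 4 of 14 alternatives. These were DESeq2 (0.35, adjusted p = 0.0388), no low-count filter (adjusted p = 0.0366) and only the libraries compared (adjusted p = 0.0403). The fourth was the fit without replicate 2 of imbibed mpk7_ko3 (0.43, adjusted p = 0.0382). Without replicate 3 of mpk7_ko3 in the same state the difference from Col-0 was 0.23 in imbibed (adjusted p = 0.280) and 0.071 in dry seeds (adjusted p = 0.802).

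Of 4 endosperm markers 2 were tested, and the more abundant of them, EPR1, fell in mkk3-1. EPR1 fell by 0.95 in imbibed seeds labelled mkk3-1 (adjusted p = 0.000449) and by 0.75 in dry mkk3-1 (adjusted p = 0.0102) relative to Col-0. The other, AGL62, was not called, at 0.27 in imbibed (1.60 against 1.33 CPM, adjusted p = 0.661) and 0.24 in dry mkk3-1 (2.01 against 1.70 CPM, adjusted p = 0.766), and PHE1 had 0 counts. The summed endosperm markers, nearly all EPR1, were 2977 to 3354 CPM in imbibed mkk3-1, 5776 to 9032 in imbibed mpk7_ko3 and 5103 to 6944 in imbibed Col-0, and 11370 to 12830, 18020 to 19000 and 17520 to 24100 CPM in the same genotypes when dry. In dry seeds the EPR1 call ended without replicate 1 of Col-0 or replicate 1 or 3 of mkk3-1. The summed reserve markers were 58720 to 71000 CPM in dry mkk3-1, below the 73520 to 87300 CPM of dry Col-0. Of these 7 markers edgeR called 0, and 3 were lower at an unadjusted p below 0.05, where no share of all genes was computed. The log2 differences of the 7 ran from -0.88 to 0.24, with a median of -0.42. In imbibed mkk3-1 0 of the 7 were called. There 1 of 5 green tissue markers tested fell, where 4.32% of all tested genes fell. Their sum was 100.8 to 116.5 CPM, against 118.5 to 143 CPM in imbibed Col-0. The part of these markers in the HSFB1 difference was not tested.

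HSFA9 was higher in mpk7_ko3 than in Col-0 in both states. Its mean was 74.4 ± 7.36 CPM in imbibed mpk7_ko3 and 40.3 ± 4.17 CPM in imbibed Col-0, and 499.9 ± 12.2 CPM in dry mpk7_ko3 and 365 ± 40.7 CPM in dry Col-0. The groups did not overlap in either state, as 31% of all tested genes in imbibed seeds and 3161 of 17758 in dry seeds did not. The log2 difference was 0.89 ± 0.111 in imbibed seeds (1.85-fold, adjusted p = 5.81e-05) and 0.45 ± 0.106 in dry seeds (1.37-fold, adjusted p = 0.0226). Without the outlying replicate 3 of mpk7_ko3 in both states the differences were 0.96 (adjusted p = 3.30e-05) and 0.45 (adjusted p = 0.0320). The imbibed call held under every alternative run. The dry call ended when only the libraries compared were fitted (adjusted p = 0.0859), and without replicate 2 or 3 of dry Col-0 (adjusted p = 0.152 and 0.0697) or replicate 2 or 3 of dry mpk7_ko3 (adjusted p = 0.0732 and 0.0522). In the libraries labelled mkk3-1 HSFA9 differed from Col-0 by 0.28 ± 0.111 in imbibed (adjusted p = 0.139) and 0.15 ± 0.106 in dry seeds (adjusted p = 0.543).

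Some other seed maturation transcripts were called in mpk7_ko3, where 9.84% of all tested genes were called in imbibed and 2.76% in dry seeds. FUS3 rose by 0.92 ± 0.175 in imbibed seeds (15.9 against 8.41 CPM, adjusted p = 0.0022) and by 0.72 ± 0.166 in dry seeds (36.9 against 22.4 CPM, adjusted p = 0.0199), the dry call ending without replicate 2 or 3 of either group. ABI3 and ABI5 were not called in mpk7_ko3 in either state. In imbibed mpk7_ko3 2 of 7 reserve markers rose, OLEO1 by 0.57 (adjusted p = 0.00627) and CRU2 by 0.78 (adjusted p = 0.0466, a call that ended without replicate 2 or 3 of Col-0 or replicate 1 or 2 of mpk7_ko3, by DESeq2 (adjusted p = 0.0663) and with upper-quartile factors (adjusted p = 0.0518)). The median of the 7 was -0.02, while the summed reserve markers of 34870 to 50340 CPM in imbibed mpk7_ko3 overlapped the 38830 to 40890 CPM of imbibed Col-0. In dry mpk7_ko3 edgeR called 0 of the 7, with a median of -0.22, and 0 passed at an unadjusted p below 0.05 or by DESeq2. Of 5 green tissue markers tested, RBCS1A fell by 0.84 in imbibed mpk7_ko3 (adjusted p = 0.00282), and their sum was 66.0 to 86.8 CPM in imbibed mpk7_ko3 and 118.5 to 143 CPM in imbibed Col-0. The part of these transcripts in the HSFA9 difference was not tested.

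HSFA1B was the third member above Col-0. In imbibed seeds it averaged 36.2 ± 0.0854 CPM in mpk7_ko3 and 28.6 ± 1.79 CPM in Col-0 without overlap, a difference of 0.34 ± 0.0722 (1.26-fold, adjusted p = 0.00509) that held under every alternative run. The other HSFA1B differences did not pass by edgeR: 0.22 (adjusted p = 0.0685) in imbibed seeds labelled mkk3-1, 0.24 (adjusted p = 0.0679) in dry mpk7_ko3 and 0.19 (adjusted p = 0.172) in dry mkk3-1. DESeq2 called the first of these (adjusted p = 0.0499) and that in dry mpk7_ko3 (adjusted p = 0.0238). In all 4 comparisons the library values of mutant and Col-0 did not overlap, as was so of 32.7% and 31% of all tested genes in imbibed mkk3-1 and mpk7_ko3, 18.4% in dry mkk3-1 and 3161 of 17758 genes in dry mpk7_ko3. The remaining members, HSFA1A, HSFA1D, HSFA2, HSFA7A, HSFB2A and HSFB2B, were not called in either mutant. The 95% intervals were widest for HSFA7A, at -0.03 to 0.76 in dry mkk3-1 and -0.20 to 0.60 in dry mpk7_ko3, and HSFA1A differed by -0.10 to 0.12 over the 4 comparisons.

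Set against each other, the mutants differed in HSFA9. In imbibed seeds 1 member was called, where 0.338% of all tested genes were called and 0.208% were lower and 0.13% higher in mkk3-1. HSFA9 was lower in the seeds labelled mkk3-1 than in mpk7_ko3 (48.9 ± 7.18 against 74.4 ± 7.36 CPM without overlap, where 17.7% of all tested genes did not overlap, log2 difference -0.61 ± 0.110, adjusted p = 0.0145). The call ended without replicate 1 or 2 of imbibed mkk3-1 (adjusted p = 0.0689 and 0.128) or of imbibed mpk7_ko3 (adjusted p = 0.132 and 0.0525), and without replicate 3 of mpk7_ko3 in both states the difference was -0.68 (adjusted p = 0.00285). HSFB1 stood at 0.34 ± 0.115 (adjusted p = 0.230) and HSFA1B at -0.12 ± 0.0717 (adjusted p = 0.587). In dry seeds edgeR and DESeq2 called 0 members, against 1.21% of all genes by edgeR, 0.766% higher and 0.445% lower in mkk3-1. At an unadjusted p below 0.05, 2 were higher in mkk3-1, HSFB1 (0.29, adjusted p = 0.213) and HSFB2A (0.30, adjusted p = 0.232), and HSFA9 was lower (-0.30, adjusted p = 0.146). The HSFB1 result varied with replicate 3 of mpk7_ko3. Without it in both states the difference of mkk3-1 from mpk7_ko3 was 0.46 in imbibed (adjusted p = 0.0148) and 0.46 in dry seeds (adjusted p = 0.0117). Leaving it out of the compared state alone gave adjusted p = 0.0730 in imbibed seeds, still not called, and 0.0277 in dry seeds.

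The imbibition response of the members did not differ detectably between a mutant and Col-0. The interaction test called 0 members by edgeR and by DESeq2 in mkk3-1 and in mpk7_ko3, where it called 0.124% (0.0788% with a higher and 0.0451% with a lower value in mkk3-1) and 0.00563% of all tested genes. At an unadjusted p below 0.05 it gave 0 members in mkk3-1 and 1 in mpk7_ko3, HSFA9, whose fall was smaller by 0.43 ± 0.153 (adjusted p = 0.479, 95% interval 0.11 to 0.75). The widest 95% intervals were those of HSFA7A, at -0.54 (-1.10 to 0.02) in the seeds labelled mkk3-1 and -0.31 (-0.88 to 0.25) in mpk7_ko3.

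Of the other 11 family members 7 were tested, and HSFA6A, HSFB3 and HSFC1 had 0 counts in every library while HSFA6B had 0 to 8. On imbibition 1 of the 7 rose and 4 fell in each genotype. Over all tested genes 73.3%, 72.5% and 74.9% were called in mkk3-1, mpk7_ko3 and Col-0. With library totals 3 of the 7 rose in each genotype and 2, 2 and 3 fell in mkk3-1, mpk7_ko3 and Col-0. HSFA1E, the remaining HSFA1 factor, was the second of the family in dry Col-0 at 76.5 CPM per kilobase, below HSFA9, and in imbibed Col-0 it was the first, at 40.8 against 26.6 CPM per kilobase for HSFA9. It fell by 0.85, 0.91 and 0.91 in mkk3-1, mpk7_ko3 and Col-0, beside the 1.14, 1.08 and 1.17 of HSFA1B. In Col-0 HSFA4A fell by 1.69, HSFA4C by 0.86 and HSFA8 by 0.83, the HSFA8 call ending with library totals in all 3 genotypes and the HSFA4C call in mkk3-1 and mpk7_ko3. HSFB4, a class B factor of root patterning, rose by 1.83, 1.96 and 1.496 in mkk3-1, mpk7_ko3 and Col-0, at 2.76, 2.74 and 3.88 CPM when imbibed and 0.779, 0.719 and 1.36 CPM when dry. Between mutants and Col-0 HSFA4C was called in imbibed mpk7_ko3 (0.34, 11 against 8.70 CPM, adjusted p = 0.0423), a call that ended without any 1 of replicates 1, 2 and 3 of Col-0 and replicates 1 and 2 of mpk7_ko3, with library totals (adjusted p = 0.130) and in 4 other settings.

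Of 9 regulators that act on heat shock factors, 2 rose and 6 fell on imbibition in each genotype, with a median of -1.35 in Col-0. Over all tested genes 73.3%, 72.5% and 74.9% were called in mkk3-1, mpk7_ko3 and Col-0, and the Col-0 median was 0.06. The risers in Col-0 were HSBP, a protein that binds and restrains HSFA1B (1.35, 18.9 CPM imbibed against 7.41 CPM dry), and the immunophilin ROF1 (0.46, 177.8 against 129.1 CPM). DREB2A, the stress factor that switches on HSFA3, had 55.3, 65.0 and 51.5 CPM in imbibed and 624, 585 and 581 CPM in dry Col-0 (-3.38 ± 0.0901, adjusted p = 5.04e-17). The coactivator MBF1C fell by 2.95 and DREB2C by 1.58. In imbibed seeds labelled mkk3-1 5 of the 9 rose and 1 fell relative to Col-0, where 3.63% of all tested genes rose and 4.32% fell. The largest difference was that of ROF2, an immunophilin that modulates HSFA2 (0.81, 45.6 against 26.0 CPM, adjusted p = 0.00336). MBF1C (0.61), DREB2C (0.61) and HSBP (-0.38, 14.5 against 18.9 CPM) came next. Only 2 rose without replicate 1 or 3 of imbibed Col-0 or replicate 1 of mkk3-1, and HSBP was not called when any library was left out. In imbibed mpk7_ko3 ROF2 (0.53) and MBF1C (0.47) rose, where 5.12% of all tested genes did. Under the alternatives 0 to 4 regulators rose. The ROF2 call ended without any single library of either group and with library totals (0.49, adjusted p = 0.108). The MBF1C call ended with library totals (0.44, adjusted p = 0.0845), among other settings. Without replicate 3 of mpk7_ko3 in both states MBF1C was at 0.33 (adjusted p = 0.208). In dry seeds 0 rose by edgeR in either mutant, where 0.687% of all tested genes rose in mkk3-1 and 0.653% in mpk7_ko3. At an unadjusted p below 0.05, 5 regulators were higher in mkk3-1 and 3 in mpk7_ko3, and DESeq2 called 2 and 0 higher. The shares of all genes given here are for edgeR's adjusted p, so these counts cannot be set against them. NF-YC10 fell in dry mkk3-1 (-0.34, adjusted p = 0.0396), a call that 8 of 14 alternatives ended.

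Many small heat shock protein genes, known targets of heat shock factors, were higher in both mutants when imbibed. Of 13 small heat shock proteins tested, 12 rose and 0 fell in imbibed seeds labelled mkk3-1 (median 1.21) and 10 rose in imbibed mpk7_ko3 (median 0.94). The member medians were 0.00 and 0.12 and those of all genes -0.02 and -0.01. Of all tested genes 3.63% rose in imbibed mkk3-1 and 5.12% in imbibed mpk7_ko3. The plastid chaperone HSP21 had 48.4, 37.3 and 29.1 CPM in imbibed libraries labelled mkk3-1, 19.0, 14.8 and 27.3 CPM in imbibed mpk7_ko3 and 4.81, 4.08 and 3.66 CPM in imbibed Col-0. It rose by 3.19 ± 0.326 (adjusted p = 3.68e-06) and by 2.28 ± 0.332 (adjusted p = 0.000223). HSP22.0 rose by 1.93 and 1.48, and HSP17.6II by 1.95 and 1.36. Many of these genes are close copies of each other, and how reads with several matches were counted is not given in the sources used here, so single values are uncertain.

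In dry seeds 8 of the 13 rose in mkk3-1 (median 0.67) and 4 in mpk7_ko3 (median 0.31), where 0.687% and 0.653% of all tested genes rose. Dry mkk3-1 had 132, 125 and 103.5 CPM of HSP21, dry mpk7_ko3 44.2, 37.9 and 104.5 CPM and dry Col-0 27.6, 28.8 and 24.4 CPM, replicate 3 standing apart in mpk7_ko3. The mkk3-1 count was 7 to 10 under the alternatives. The mpk7_ko3 count was 0 without replicate 2 or 3 of dry Col-0 or with only the libraries compared, 1 without replicate 3 of dry mpk7_ko3 and 2 without that replicate in both states. On imbibition 9, 9 and 11 of the 13 fell in mkk3-1, mpk7_ko3 and Col-0, against the 35.8%, 34.9% and 36.1% of all tested genes, and 0, 2 and 0 rose. The risers in mpk7_ko3 were HSP22.0 (0.65) and HSP23.6 (0.24). With library totals 7, 5 and 9 fell and 3, 3 and 2 rose.

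The larger chaperones were split. Over all tested genes 3.63% rose and 4.32% fell in imbibed mkk3-1, and 5.12% rose and 4.72% fell in imbibed mpk7_ko3. In imbibed seeds labelled mkk3-1 4 of 10 rose and 1 fell: HSP70B by 1.41, HSP90-1 by 1.14 and HSP101 by 0.72 were among those that rose, and the constitutive HSP70-3 fell by 0.75, a call lost without replicate 3 of Col-0 or replicate 1 or 2 of mkk3-1. In imbibed mpk7_ko3 4 rose and 0 fell, HSP70B by 1.17, HSP90-1 by 0.92, HSP101 by 0.64 and HSP70-4 by 0.42. Of 5 other heat-inducible targets tested 4 rose in each mutant when imbibed. BAG6, a co-chaperone, rose by 0.97 and 0.94, and the galactinol synthase gene GOLS1 by 0.94 and 0.90. The 2-unit heat shock element lay in the 250 bases before 7 of 13 small heat shock protein genes, 0 of 10 of the larger chaperones and 6 of 6 of the other targets. It lay before 2 of the 10 heat shock factors and in 16.5% of all windows. Only exact letters within this stretch were searched, so a gene without a match may hold an element farther away or with other letters.

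**Figure D5:**
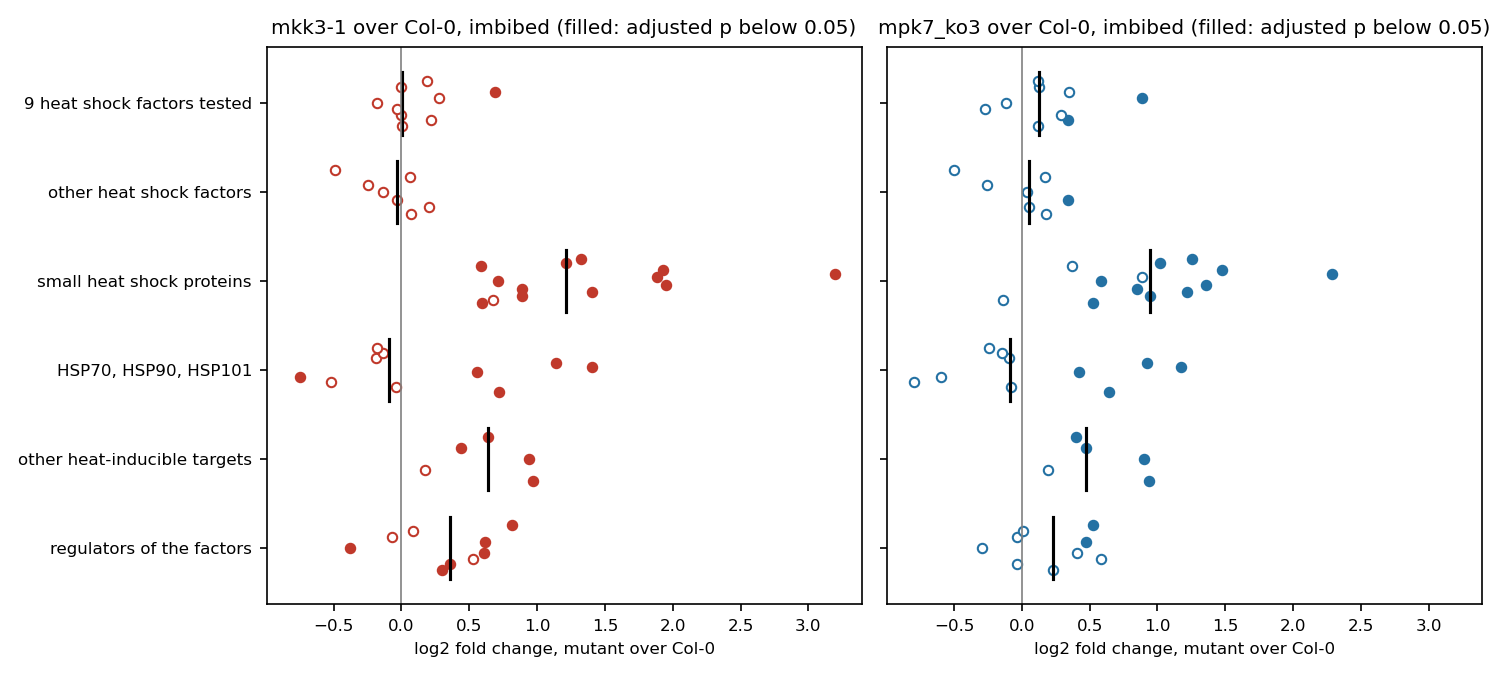
Log2 fold change over Col-0 in imbibed seeds (x axis) of mkk3-1 (left) and mpk7_ko3 (right) for each tested gene (points) of 6 lists (y axis), filled where the adjusted p is below 0.05, with the list median as a black bar. The median of the 9 heat shock factors is 0.00 and 0.12, and that of the small heat shock proteins 1.21 and 0.94.

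The genes whose pattern over the 6 group means was most like each member's were found as those with the smallest root mean square difference in centred log2 CPM. For HSFA9, whose own range over the groups was 3.64, they were BGLU19 (0.110), GATA19 (0.116) and AT5G45630 (0.139). For HSFB1, with a range of 0.68, they were AT4G05685 (0.0680), AOR (0.0695) and AT1G55980 (0.0727). For HSFB2B they were NAC089 (0.0225), UGT78D2 (0.0332) and AT1G70590 (0.0557), for HSFA2 RDUF1 (0.0825), AT3G54520 (0.0860) and AT4G24910 (0.0925), and for HSFA1B AT3G56250 (0.0250), VPS2.3 (0.0306) and RING1B (0.0327). These distances rest on 6 means and describe likeness of level only.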

How the data were processed

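RNA of whole seeds was sequenced in 18 libraries, 3 in each of 6 groups. The authors' deposited table holds whole-number counts per gene and library. Per the submitters' processing notes, the tools were fastp 0.20.0, HISAT2 2.1.0, featureCounts 2.0.1 and DESeq2 1.34.0 with the TAIR10 build, and the strand setting and the treatment of multiply matched reads are not given in the sources used here. No column of the table was left unassigned to a sample.

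From these counts the following was computed. Totals ran from 18249333 to 21036275 counts per library. Genes were kept by filterByExpr with a minimum count of 10, which left 17758 of 32833 genes, and the genes removed held 0.0393% of the counts. All 6 groups were fitted together with edgeR 4.0.16 in R 4.3.3 (TMM factors, quasi-likelihood test, 12 residual degrees of freedom, common biological coefficient of variation 0.104), and 11 comparisons were read from that fit with Benjamini-Hochberg adjustment over all tested genes and a threshold of 0.05. Standard errors were derived from the test's F value and intervals cover 95%. The scripts were tested on simulated data. DESeq2 1.42.0 was run as an alternative, beside other scalings, no low-count filter, replicate blocks, fits of only the libraries compared, a threshold of 0.01 and fits without single libraries. A count of 0 was read as allowing 3 counts, and such limits cover counting error only. No pair of replicates differed as little as counting noise (chi-square per degree of freedom 6.93 to 31.6).

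The members and the 12 gene lists were chosen with earlier results of these data known. All 88 listed genes were found in the table by locus. In the RefSeq annotation 75 of these carried the listed symbol as a name or synonym, and 13 were matched on the locus only. The text names all members, MKK3, MPK7 and the other 11 family members. Of each further list it names up to 4 genes past the threshold with the largest log2 difference in a comparison, or else its 2 most abundant genes. The 3 genes nearest to a member were ranked on log2 CPM with a prior count of 2. Positions follow the deposited table. Upstream sequences come from RefSeq TAIR10.1, where 32532 of 32548 nuclear genes had the chromosome, start and end of the deposited table.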

Additional observations from a re-analysis of the deposited data

Results flagged for a closer look

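The imbibition response of MKK3 itself differed between the seeds labelled mkk3-1 and Col-0. On imbibition MKK3 rose by 0.68 ± 0.106 on the log2 scale in seeds labelled mkk3-1 (adjusted p = 7.85e-06) and fell by 0.38 ± 0.0982 in Col-0 (adjusted p = 0.00160), and the interaction was 1.06 ± 0.144 (adjusted p = 0.00170, edgeR's quasi-likelihood test, n = 3 libraries per group). The imbibed libraries labelled mkk3-1 had 12.7, 12.3 and 10.3 CPM and the dry ones 7.12, 7.21 and 7.75 CPM, against 14.1, 13.4 and 12.5 CPM in imbibed and 18.6, 17.3 and 16.2 CPM in dry Col-0.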

How the results depend on the processing

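Of 52 member results followed through the alternatives 26 were called. Of these 21 kept their call and direction under every alternative, 5 lost the call under at least 1 and 0 changed direction; 13 results not called passed under at least 1 alternative, and 8 changed direction under at least 1. Most of the direction changes came from library totals in place of TMM, which gave the imbibition change of HSFA1D as 0.38 in mkk3-1, 0.39 in mpk7_ko3 and 0.43 in Col-0, that of HSFA7A as 0.26 in Col-0, and that of HSFB1 as 0.54 in mpk7_ko3 and 0.48 in Col-0. For HSFB1 upper-quartile factors gave 0.14 in mpk7_ko3 and 0.041 in Col-0, no low-count filter gave 0.022 and leaving out replicate 3 in both states gave 0.043 in mpk7_ko3. Leaving out single libraries gave the imbibition change of HSFB1 as -0.058 (without imbibed replicate 1) to 0.12 in mkk3-1 and as -0.12 to 0.16 in mpk7_ko3, and its mpk7_ko3 interaction as -0.0023 (without imbibed replicate 3) to 0.27. The cause was not tested.

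Members called at an adjusted p below 0.01 numbered 0 in dry mkk3-1 and dry mpk7_ko3 against Col-0 and 0 in imbibed mkk3-1 against mpk7_ko3, where 1 each was called at 0.05. DESeq2 called 2 in dry mpk7_ko3 and 2 in imbibed mkk3-1 against Col-0, where edgeR called 1 each, and 3 in imbibed mpk7_ko3, where edgeR called 2. Fitting only the libraries compared gave 0 in dry mpk7_ko3 and 3 each in imbibed mkk3-1 and mpk7_ko3, and no low-count filter gave 3 in imbibed mpk7_ko3. Without replicate 3 of mpk7_ko3, 1 member was called between the dry and 2 between the imbibed mutants, against 0 and 1 with it. Leaving out single libraries gave 7 to 7 members on imbibition of mkk3-1 and of mpk7_ko3, 6 to 7 of Col-0, 1 to 2 in imbibed mkk3-1, 2 to 3 in imbibed mpk7_ko3, 0 to 1 in dry mkk3-1 and 0 to 2 in dry mpk7_ko3 against Col-0, 0 to 1 between the mutants in either state and 0 to 0 for both interactions.

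Counts over all genes moved more. For dry mkk3-1 against Col-0 the 370 genes became 106 at 0.01, 649 by DESeq2, 230 with only the libraries compared and 656 without replicate 3 of mpk7_ko3. For dry mpk7_ko3 the 491 became 167 at 0.01, 775 by DESeq2 and 73 with only the libraries compared. For imbibed mkk3-1 the 1412 became 639 at 0.01 and 2887 with only the libraries compared, and for imbibed mpk7_ko3 the 1748 became 683 at 0.01. Between the dry mutants the 215 became 28 at 0.01, 610 by DESeq2, 504 with no filter, 29 with only the libraries compared and 1095 without replicate 3. Between the imbibed mutants the 60 became 19, 226, 233 and, without replicate 3, 454. The interaction of mkk3-1 had 22 genes, and 5 at 0.01, 161 by DESeq2, 90 with no filter, 97 with only the libraries compared and 101 without replicate 3. That of mpk7_ko3 had 1, and 58 by DESeq2, 36 with no filter and 7 without replicate 3. Single libraries left out gave 12369 to 12471, 12332 to 12578 and 12721 to 12819 genes on imbibition of mkk3-1, mpk7_ko3 and Col-0, 756 to 1003 and 887 to 1386 in imbibed and 130 to 409 and 146 to 575 in dry mkk3-1 and mpk7_ko3 against Col-0, 18 to 198 and 33 to 882 between imbibed and dry mutants, and 5 to 78 and 1 to 19 for the interactions of mkk3-1 and mpk7_ko3.

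Library totals moved the share of calls that were higher to 75.2%, 75.8% and 75.9% on imbibition of mkk3-1, mpk7_ko3 and Col-0, against 51.2%, 51.9% and 51.8% with TMM. Against Col-0 it was 51.3% in place of 33.0% in dry mkk3-1 and 37.6% in place of 52.0% in imbibed mpk7_ko3, between the mutants 80.5% in place of 63.3% when dry and 56.6% (upper-quartile factors 50.0%) in place of 38.3% when imbibed, and for the mkk3-1 interaction 50.0% in place of 63.6%.

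The labels number the replicates, but same-numbered libraries deviated together only weakly, with correlations of -0.154 to 0.279 that were not above 0.1 for every pair in any comparison. With the replicate block the members called were 7, 7 and 6 on imbibition of mkk3-1, mpk7_ko3 and Col-0, 1 and 2 in imbibed and 1 and 1 in dry mkk3-1 and mpk7_ko3 against Col-0, 1 and 0 between imbibed and dry mutants and 0 for both interactions, as without it. With the block 2 genes were called in the mpk7_ko3 interaction, and with a replicate block nested in genotype 63 and 22 in those of mkk3-1 and mpk7_ko3. Every library correlated best with its own number in the imbibition comparisons of mpk7_ko3 and Col-0 only, which is a hint from the data and not from the design.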
